A study of Homo sapiens with 12 samples.

Results

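Transcripts of 10 genes of the WNT pathway were followed: the LGR receptors LGR4, LGR5 and LGR6, the membrane ubiquitin ligases ZNRF3 and RNF43, the transcription factors TCF7 and LEF1, and the feedback inhibitors AXIN2, NKD1 and DKK1. They were taken by gene symbol from a table of 26485 genes, of which 14498 passed a filter on low counts, and all 10 were among these. RNA sequencing had been done on COV362 and PEO1, established lines of human high-grade serous ovarian carcinoma, after the vehicle DMSO or 20 nM prexasertib, which blocks CHK1 and CHK2, kinases of the DNA replication and damage checkpoints. The 4 groups were COV362 DMSO, COV362 prexasertib, PEO1 DMSO and PEO1 prexasertib, with 3 libraries each, lettered A, B and C. How long the cells were exposed is not stated. Each group is a single established line, so a result in it describes that line only. The labels do not tell separate cultures from repeat preparations, and p-values therefore measure the spread between these libraries, which may be technical.

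WNT proteins bind a Frizzled receptor together with LRP5 or LRP6 at the cell surface, which keeps β-catenin from being degraded and lets it act with the TCF and LEF factors on target genes. ZNRF3 and RNF43 mark Frizzled receptors for removal, and R-spondins bound to an LGR receptor take these ligases off the surface and so raise WNT sensitivity. AXIN2, NKD1, DKK1, ZNRF3, RNF43, LEF1, TCF7 and LGR5 are known as targets of the pathway in many tissues, and LGR5 and LGR6 are also known as markers of epithelial stem and progenitor cells, for LGR5 also in the ovarian surface and tubal epithelium.

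The libraries held 9390790 to 18262805 counts. Levels are given as CPM, the counts divided by the library size in units of 1000000 after scaling with edgeR's TMM factors, and as CPM per kilobase of exon where genes are compared with each other. A gene was called changed at an adjusted p under 0.05, from edgeR's quasi-likelihood test with Benjamini-Hochberg adjustment over all 14498 genes. Of 10 Müllerian and ovarian epithelial markers, PAX8 averaged 82.9 to 144 CPM over the groups, but the lines differed in others. In COV362 DMSO and PEO1 DMSO, CDH1 averaged 0.346 and 114 CPM and EPCAM 11.9 and 419 CPM, while FOLR1 averaged 5.05 CPM in COV362 DMSO and was at 0 in PEO1 DMSO. The list summed to 2300 to 3530 CPM per library in COV362, to 6710 to 7820 CPM in PEO1 DMSO and to 3550 to 4140 CPM in PEO1 prexasertib, where KRT7 averaged 1447 CPM against 3040 CPM in DMSO. The 5 fibroblast markers summed to 3.70 to 7.17 CPM per library, most of it COL1A1, which averaged 4.65 to 6.18 CPM over the groups. PDGFRA held 37 and 29 counts in COV362 DMSO and prexasertib and 0 and 11 in PEO1. COL3A1 and DCN held at most 1 and 4 counts in a group, and LUM was at 0 in every group. The 4 immune markers summed to 0.121 to 5.16 CPM. The endothelial list of 3 genes summed to 73.8 to 88.2 CPM in COV362 DMSO and 46.5 to 51.0 CPM in COV362 prexasertib, most of it CDH5 (73.9 and 45.2 CPM on average). That list summed to 6.43 to 7.38 CPM in PEO1 DMSO and 1.32 to 3.62 CPM in PEO1 prexasertib. The part of the epithelial and endothelial lists in the results was not tested. In bulk RNA, fewer cells that express a gene and less RNA per cell cannot be told apart.

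RefSeq start-site windows of GRCh38.p14, 250 bases before to 50 after a start, were found for 6 of the 10 genes, in 10 windows. LGR5, AXIN2, ZNRF3 and NKD1 had none in the table. The windows are shown for the 3 called genes that had one, because these carry the changes with prexasertib described further on: DKK1 at chr10:52314031-52314330 on the plus strand, TCF7 at chr5:134123368-134123667 on the plus strand, the second of its 2 windows and the one with a match, and LGR6 at chr1:202193549-202193848 on the plus strand, the first of its 3. Capitals mark matches to the TCF/LEF letters CTTTGAA or CTTTGAT or CTTTGTA or CTTTGTT on either strand.
DKK1: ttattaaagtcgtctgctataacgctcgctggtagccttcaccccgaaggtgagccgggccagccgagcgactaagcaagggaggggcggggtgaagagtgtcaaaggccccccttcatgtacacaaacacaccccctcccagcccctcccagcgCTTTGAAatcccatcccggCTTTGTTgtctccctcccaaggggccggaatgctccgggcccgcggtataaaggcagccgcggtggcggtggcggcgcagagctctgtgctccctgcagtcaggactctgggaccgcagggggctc
TCF7: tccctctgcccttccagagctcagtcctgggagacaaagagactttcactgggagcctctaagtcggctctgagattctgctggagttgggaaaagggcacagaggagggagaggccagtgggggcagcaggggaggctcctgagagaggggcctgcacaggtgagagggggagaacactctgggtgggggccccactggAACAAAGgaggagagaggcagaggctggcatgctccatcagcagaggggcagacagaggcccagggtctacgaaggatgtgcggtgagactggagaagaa
LGR6: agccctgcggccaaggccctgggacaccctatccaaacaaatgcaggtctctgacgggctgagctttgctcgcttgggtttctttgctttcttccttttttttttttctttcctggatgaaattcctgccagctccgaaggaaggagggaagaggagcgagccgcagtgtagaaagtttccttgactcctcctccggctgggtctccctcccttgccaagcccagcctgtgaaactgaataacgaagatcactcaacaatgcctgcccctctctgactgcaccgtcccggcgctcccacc

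DKK1 held 2 such matches, from -95 to -89 and from -76 to -70 relative to the start. TCF7 held 1, from -50 to -44, read on the opposite strand and therefore printed as AACAAAG. No other member window had these letters, so 2 of 10 windows matched, and 13.8% of all 35116 windows did. A match is a description of the letters only. TGACTCA or TGAGTCA, the AP-1 letters, occurred in 1 member window, the second of RNF43, and in 4.9% of all windows, and they do not overlap the TCF/LEF letters. The start used for LGR6 lies at -191 relative to the first counted exon base, and that of DKK1 coincides with its own. The TCF7 start shown lies 8907 bases downstream of its first counted exon base, and the other TCF7 window, whose start lies 902 bases downstream, held no match.

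In DMSO the 2 lines carried different receptors and inhibitors. COV362 expressed DKK1 far above the rest and had LGR6 as its leading LGR receptor, while PEO1 had LGR4 and lacked any LGR5 count. Of the 10 genes, 4 were higher in PEO1 DMSO than in COV362 DMSO (LGR4, TCF7, RNF43 and NKD1), against 29.1% of all tested genes called higher. Another 4 were lower (LGR5, LGR6, AXIN2 and DKK1), against 28.6% of all tested genes called lower. RNF43 passed the filter only through PEO1 and LGR5 only through COV362, so the calls of both were favoured in advance. LEF1 and ZNRF3 were not called. The median log2 difference was 0.20 over the 10 genes and -0.0077 over all tested genes.

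Per kilobase of exon, DKK1 led in COV362 DMSO with 84.1 ± 11.3 CPM (SD, n = 3), followed by LGR6 with 7.76 ± 0.478 and TCF7 with 4.01 ± 0.317. LGR4 (2.24) and ZNRF3 (1.93) came next with overlapping ranges, then AXIN2 (1.08), LGR5 (0.424) and LEF1 (0.403), where AXIN2 and LGR5 overlapped and LGR5 and LEF1 overlapped. NKD1 (0.105) and RNF43 (0.0194) were lowest. In PEO1 DMSO, LGR4 with 11.0 ± 2.57 and DKK1 with 10.3 ± 0.765 shared the top with overlapping ranges, followed by TCF7 with 6.77 ± 0.496 and ZNRF3 with 1.74 ± 0.146. LEF1 (0.585) and LGR6 (0.554) overlapped, NKD1 stood at 0.333, AXIN2 (0.171) and RNF43 (0.143) overlapped, and LGR5 was at 0. Thus LGR6 was the second gene of the order in COV362 and the sixth in PEO1. After prexasertib DKK1 alone led in PEO1 with 15.7 ± 2.84 per kilobase, its range no longer meeting that of LGR4 at 10.1 ± 1.73. LGR6 (0.0217) and LGR5 (0.0798) had the lowest means, with overlapping ranges, but the LGR5 range also met those of RNF43 (0.1865) and AXIN2 (0.2664).

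**Figure D1:**
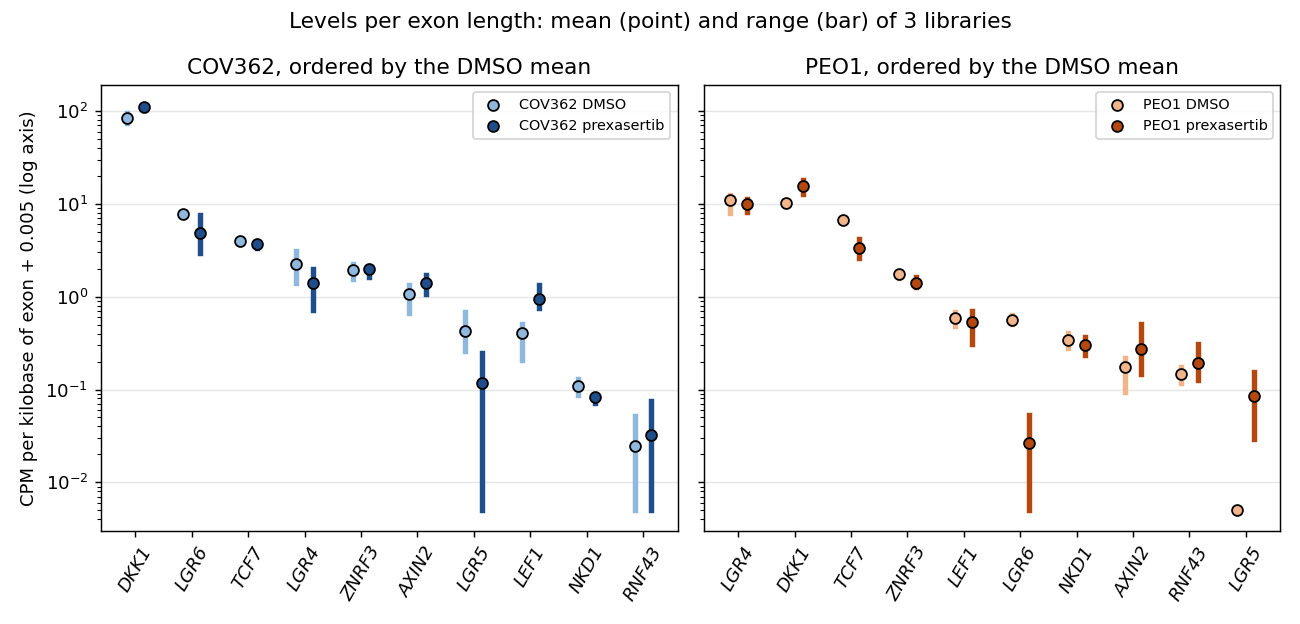
Mean CPM per kilobase of exon (log axis, 0.005 added so that zeros can be drawn) for the 10 genes in COV362 and PEO1, ordered by the DMSO mean; points are means and bars the range of 3 libraries. DKK1 leads in COV362 DMSO at 84.1, LGR4 and DKK1 lead in PEO1 DMSO at 11.0 and 10.3, and LGR6 in PEO1 moves from 0.554 to 0.0217.

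LGR6 (chr1:202193990-202319761 on the plus strand of hg38, 20 exon blocks) encodes a receptor for R-spondins. In PEO1 its level was 1.96, 2.28 and 1.82 CPM in DMSO libraries A, B and C and 0.176, 0 and 0.0604 CPM in the prexasertib libraries. All 3 treated libraries lay far below all 3 vehicle libraries, with 4 counts in total against 105. In PEO1, LGR6 fell by 4.57 on the log2 scale (SE 0.62, n = 3 per group, adjusted p = 0.000173 in edgeR's quasi-likelihood test). From the pooled counts it was 26.2-fold lower, with a 95% interval of 9.93 to 97.9 that covers counting error only. The call held in all 23 alternative analyses, with adjusted p from 1.81e-08 to 0.00339. The size depended on treated library A, which held 3 of the 4 counts: without it the log2 change was -5.83, and without all A libraries -5.84.

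In COV362, LGR6 stood at 30.0, 28.2 and 26.5 CPM in DMSO and at 27.3, 10.6 and 15.7 CPM in prexasertib. Treated library A lay within the vehicle range and treated libraries B and C below it. Its log2 change of -0.67 (SE 0.30) was not called (edgeR adjusted p = 0.365). It was called lower with the replicate letter as a block (-0.75, edgeR adjusted p = 0.0299) and without the A libraries (-1.05, edgeR adjusted p = 0.0345), and adjusted p over the 23 alternatives ran from 0.00773 to 0.643. The change in PEO1 was lower than that in COV362 by 3.91 on the log2 scale (SE 0.73), a difference that itself passed the test (edgeR adjusted p = 0.00997), also in all 22 alternatives run for it (adjusted p 1.83e-05 to 0.0447). Without treated PEO1 library A that difference was -5.16, and without all A libraries -4.79. Both vehicle groups enter this difference as well as the comparison of DMSO groups, where LGR6 was 13.9-fold lower in PEO1 (log2 -3.80 ± 0.35 SE, edgeR adjusted p = 5.71e-07).

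LGR5 (chr12:71439770-71586308 on the plus strand, 19 exon blocks), the receptor best known as a stem cell marker, moved from nothing to a few counts in PEO1. Its counts were 0, 0 and 0 in DMSO libraries A, B and C and 2, 6 and 12 in prexasertib, or 0.117, 0.330 and 0.724 CPM. Every treated library lay above every vehicle library, and 0 counts over the vehicle group allow a level of up to 0.0578 CPM, counting error only. Against that limit of 3 counts, LGR5 was 6.68-fold higher in PEO1 prexasertib, and it was called (edgeR adjusted p = 0.0379). The fold leaves out the counting error of the 20 treated counts, so it is no strict lower bound. LGR5 entered this test only through COV362: all 3 COV362 DMSO libraries reached the filter's cutoff of 0.610 CPM, against 0 and 1 of 3 in the PEO1 groups, and with the PEO1 libraries alone it did not pass the filter. The call rested on single libraries: edgeR's adjusted p was 0.081, 0.0886 and 0.0877 without DMSO library A, B or C, 0.0646 without prexasertib library B and 0.112 without prexasertib library C. Over the 22 alternatives that gave one, adjusted p ran from 0.00344 to 0.112.

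In COV362, LGR5 was present in vehicle at 1.69, 3.29 and 1.24 CPM and lower after prexasertib, at 0, 0.494 and 1.18 CPM. The groups did not overlap, but treated library C stood at 0.951 of vehicle library C, and treated library B at 0.150 of vehicle library B. The log2 difference of -1.83 (SE 0.83) was not called (edgeR adjusted p = 0.391), nor was it in any of 23 alternatives (adjusted p 0.0681 to 0.793). The changes of the 2 lines differed (edgeR adjusted p = 0.049), a call that was lost in 9 of the 12 analyses leaving out 1 library. These were the ones without COV362 DMSO B or C, COV362 prexasertib B, or any of the 6 PEO1 libraries, and adjusted p over all 12 ran from 0.0409 to 0.109. The fitted difference is no bound, since PEO1 DMSO held no count. COV362 DMSO, which carried LGR5 past the filter, enters this difference too, so the selection of LGR5 is not independent of it. Against the same limit of 3 counts, LGR5 was 38.4-fold lower in PEO1 DMSO than in COV362 DMSO (edgeR adjusted p = 0.000796), a call that held in all 23 alternatives. This fold leaves out the counting error of COV362 DMSO. Since COV362 DMSO is the group that carried LGR5 past the filter, a gene at 0 in PEO1 DMSO had to differ there.

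LGR4 (chr11:27365961-27472787 on the minus strand, 18 exon blocks), the broadly expressed member of the receptor family, was the most abundant of the 3 receptors in PEO1. It stood at 42.0, 65.1 and 65.7 CPM in PEO1 DMSO and at 42.3, 59.3 and 56.5 CPM after prexasertib, groups that overlapped almost fully. The log2 change was -0.13 (SE 0.31, edgeR adjusted p = 0.789). In COV362 it was 7.26, 16.3 and 11.7 CPM in DMSO and 3.77, 10.3 and 8.01 CPM after prexasertib. The groups overlapped, yet each treated library lay below the vehicle library of its letter, at 0.519, 0.631 and 0.686 of it.

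Library A was the lowest for LGR4 in all 4 groups. The A libraries also had lower values for longer genes relative to the other libraries of their line, with rank correlations across genes between deviation and exon length of -0.419 to -0.155. LGR4 in COV362 was not called (log2 -0.68 ± 0.34 SE, edgeR adjusted p = 0.43). With the replicate letter as a block it was called lower (-0.68 ± 0.17 SE, edgeR adjusted p = 0.0116), and with the block and a correction for exon length as well (-0.61, edgeR adjusted p = 0.0117), while adjusted p over the 23 alternatives ran from 0.00146 to 0.868. The difference between the lines' changes was 0.56 (SE 0.45, edgeR adjusted p = 0.475), and with the block it was called at 0.57 (edgeR adjusted p = 0.0485, range over the 22 alternatives 0.0162 to 0.832). LGR4 was 4.82-fold higher in PEO1 DMSO than in COV362 DMSO (edgeR adjusted p = 4.79e-05). Its exons share 10 bases with LOC105376671 on the other strand, which had 4 counts in all.

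**Figure D2:**
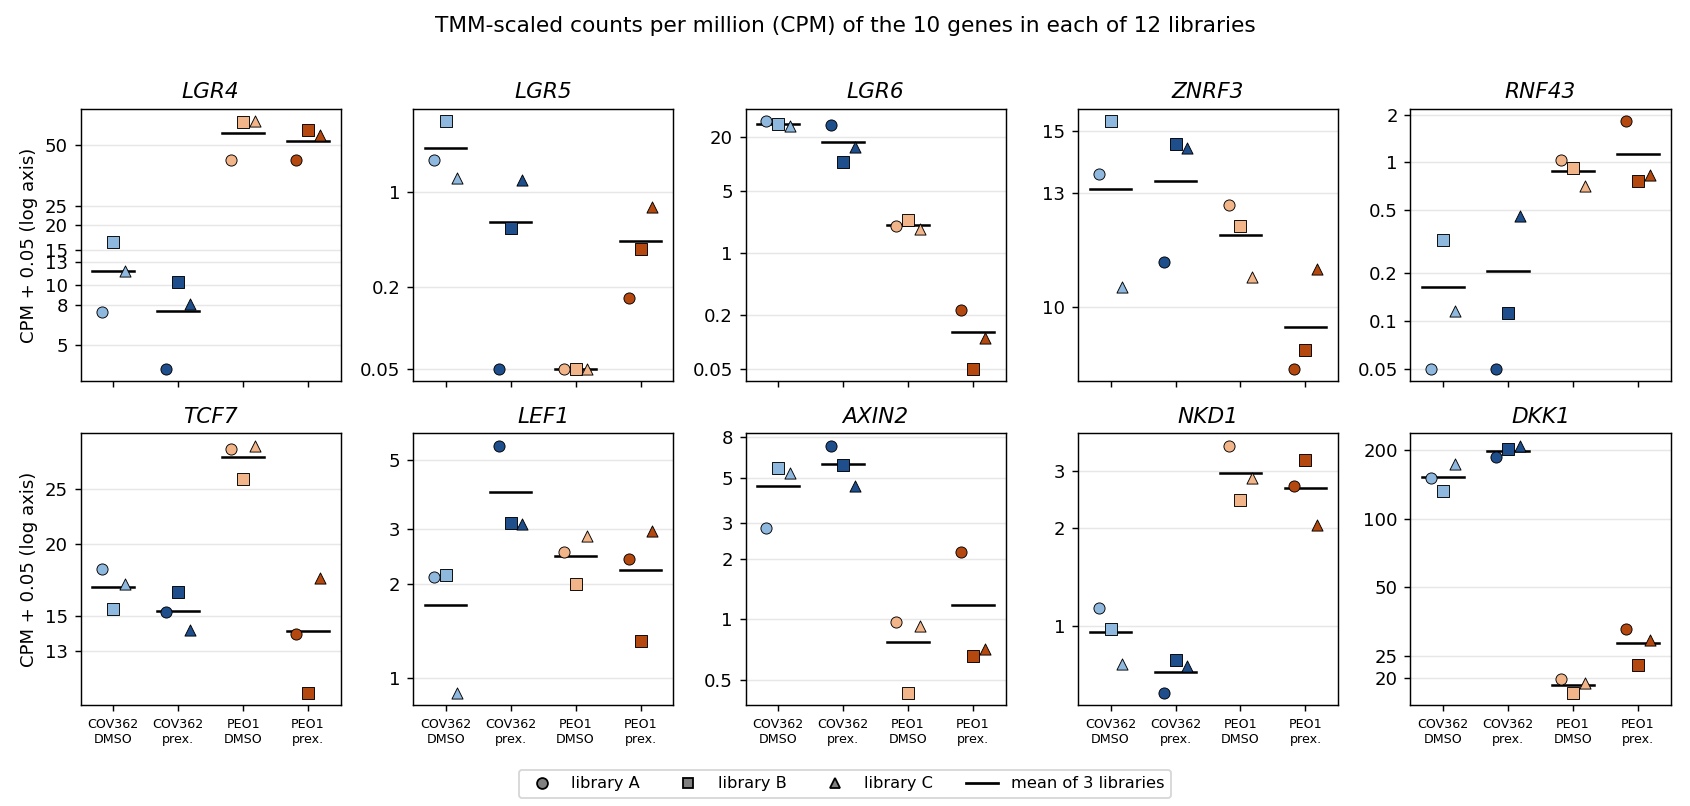
CPM (log axis, 0.05 added so that zeros can be drawn) of the 10 genes in each of 12 libraries; symbols give the library letter and lines the mean of 3. In PEO1, LGR6 falls from 1.82 to 2.28 CPM in DMSO to at most 0.176 CPM after prexasertib, while LGR5 goes from 0 to between 0.117 and 0.724 CPM.

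The ligases changed with prexasertib in neither line by this test. ZNRF3 (chr22:28883767-29057488, plus strand, 10 exon blocks) stood at 13.6, 15.3 and 10.4 CPM in COV362 DMSO and at 11.1, 14.5 and 14.4 CPM after the drug, with overlapping groups (log2 0.027 ± 0.20 SE, edgeR adjusted p = 0.986). In PEO1 it was between 10.7 and 12.6 CPM in the 3 DMSO libraries and 8.63, 9.01 and 10.9 CPM after the drug, where treated library C reached into the vehicle range (log2 -0.31 ± 0.20 SE, edgeR adjusted p = 0.257). Its level in PEO1 DMSO was within 0.16 of that in COV362 DMSO on the log2 scale (-0.16 ± 0.20 SE).

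RNF43 (chr17:58352500-58417582, minus strand, 11 exon blocks) was close to absent from COV362. Its counts there were 0, 5 and 1 in DMSO and 0, 1 and 7 in prexasertib, a ratio of 1.23 with a counting interval of 0.374 to 4.30. In PEO1 the counts were 15, 16 and 12 in DMSO and 30, 13 and 13 in prexasertib, with library A the highest of the treated group and the other two at vehicle levels. Neither line's change was called (edgeR adjusted p = 0.959 in COV362 and 0.714 in PEO1). In DMSO, RNF43 was 5.78-fold higher in PEO1 from the pooled counts (counting interval 2.45 to 16.6, edgeR adjusted p = 0.025), the line through which alone it passed the filter. That call was lost without COV362 DMSO library A or C (edgeR adjusted p = 0.0663 and 0.0997), PEO1 DMSO library A or B (0.0602 and 0.0579) or all A libraries (0.0526), and ranged from 0.00293 to 0.0997 over the alternatives. The fitted log2 difference was 2.54 (SE 0.89), and 4.09 without COV362 DMSO library B, which held 5 of the 6 counts. RNF43 shares 1228 exonic bases with BZRAP1-AS1 on the other strand, which had 2 counts in all.

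Of the transcription factors, TCF7 fell in PEO1. TCF7 (chr5:134114711-134148229, plus strand, 11 exon blocks) encodes TCF1, which binds DNA together with β-catenin. Its level in PEO1 was 29.4, 26.0 and 29.7 CPM in DMSO and 13.9, 10.9 and 17.4 CPM in prexasertib. The groups were well apart, and each treated library was at 0.421 to 0.585 of the vehicle library of its letter. TCF7 fell by 1.01 on the log2 scale (SE 0.18, n = 3 per group, edgeR adjusted p = 0.000945), and the call held in all 23 alternatives (adjusted p 8.13e-08 to 0.0045).

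In COV362, TCF7 was 18.0, 15.4 and 17.0 CPM in DMSO and 15.2, 16.5 and 14.1 CPM in prexasertib, with overlapping groups (log2 -0.14 ± 0.18 SE, edgeR adjusted p = 0.833). The difference between the lines' changes, -0.87 (SE 0.25), just missed the threshold (edgeR adjusted p = 0.0535). It was called with the replicate letter as a block (-0.89, edgeR adjusted p = 0.00428) and in 10 of 22 alternatives in all, over which adjusted p ran from 0.00118 to 0.126. In DMSO, TCF7 was 1.69-fold higher in PEO1 than in COV362 (edgeR adjusted p = 0.00218), while after prexasertib the means of the lines were 14.1 ± 3.23 CPM in PEO1 and 15.3 ± 1.18 CPM in COV362.

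LEF1 (chr4:108047545-108168956, minus strand, 13 exon blocks), the sister factor of TCF7, was low in both lines. In COV362 it was 2.06, 2.08 and 0.847 CPM in DMSO and 5.49, 3.09 and 3.06 CPM in prexasertib. All 3 treated libraries lay above all 3 vehicle libraries, at 2.67, 1.48 and 3.61 times the library of their letter. The log2 change of 1.23 (SE 0.43) nevertheless did not pass the adjusted threshold (unadjusted p = 0.0125, edgeR adjusted p = 0.23). With a block for the letters it had an edgeR adjusted p of 0.0789, and with the block set within each line 0.0298, the only one of 23 alternatives that called it (range to 0.524). In PEO1 it was 2.48, 1.95 and 2.81 CPM in DMSO and 2.35, 1.26 and 2.90 CPM after prexasertib, with overlapping groups (log2 -0.16 ± 0.41 SE, edgeR adjusted p = 0.812). The difference between the lines, -1.38 (SE 0.59), was not called (edgeR adjusted p = 0.166), but was with the block within each line (0.0382, of a range from that value to 0.317 over the alternatives). LEF1 shares 279 exonic bases with LEF1-AS1 on the other strand, which had 0 counts.

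DKK1 (chr10:52314281-52317657, plus strand, 4 exon blocks) encodes a secreted inhibitor that binds the co-receptors LRP5 and LRP6. In PEO1 it was 19.8, 17.1 and 19.0 CPM in DMSO and 32.8, 22.8 and 29.4 CPM in prexasertib. Every treated library lay above every vehicle library, and by letter the ratios were 1.66, 1.33 and 1.54. DKK1 rose by 0.60 on the log2 scale (SE 0.15, n = 3 per group, edgeR adjusted p = 0.00911). The call was lost without PEO1 DMSO library B (edgeR adjusted p = 0.0666), prexasertib library A (0.0747) or prexasertib library C (0.0512), and held in the other 20 alternatives (lowest adjusted p 1.27e-05).

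In COV362, DKK1 was 150, 133 and 173 CPM in DMSO and 187, 201 and 208 CPM in prexasertib. Here too every treated library lay above every vehicle library, with ratios of 1.24, 1.51 and 1.20 by letter. The log2 change of 0.39 (SE 0.15) was not called (unadjusted p = 0.0191, edgeR adjusted p = 0.272), but it was with the replicate letter as a block (0.40, edgeR adjusted p = 0.0152), with a range of 0.00234 to 0.644 over the 23 alternatives. The difference between the lines' changes was 0.22 (SE 0.21), which was not called (edgeR adjusted p = 0.552) in this fit or in any of 22 alternatives. DKK1 was 8.15-fold lower in PEO1 DMSO than in COV362 DMSO (log2 -3.03 ± 0.16 SE, edgeR adjusted p = 2.39e-09).

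AXIN2 (chr17:65528565-65561622, minus strand, 11 exon blocks), a scaffold of the β-catenin destruction complex and a widely used readout of the pathway, was called in neither line. It was 2.78, 5.59 and 5.28 CPM in COV362 DMSO and 7.21, 5.80 and 4.53 CPM after prexasertib. In PEO1 it was 0.914, 0.380 and 0.880 CPM in DMSO and 2.11, 0.604 and 0.664 CPM after prexasertib. The groups overlapped in both lines, and in both the treated A library was the highest of the 6, at 2.59 and 2.31 times the vehicle A library, whereas treated C stood at 0.859 and 0.755 of vehicle C. The log2 changes were 0.33 (SE 0.43, edgeR adjusted p = 0.833) in COV362 and 0.64 (SE 0.53, edgeR adjusted p = 0.395) in PEO1, and without the A libraries they were -0.068 and 0.0055. Without the treated A library alone, the PEO1 value was -0.23. AXIN2 was 6.38-fold lower in PEO1 DMSO than in COV362 DMSO (edgeR adjusted p = 0.000431).

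NKD1 (chr16:50548330-50640860, plus strand, 10 exon blocks), an intracellular inhibitor that acts on Dishevelled, was not called with prexasertib either. It was 1.09, 0.931 and 0.717 CPM in COV362 DMSO and 0.573, 0.740 and 0.706 CPM after the drug. It was 3.53, 2.39 and 2.81 CPM in PEO1 DMSO and 2.64, 3.19 and 1.99 CPM after the drug, and the groups overlapped in both lines. The log2 changes were -0.40 (SE 0.40) and -0.15 (SE 0.32), with edgeR adjusted p of 0.763 and 0.762. In DMSO it was 3.21-fold higher in PEO1 (edgeR adjusted p = 0.00115).

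Counted over the 10 genes, 2 rose (LGR5 and DKK1) and 2 fell (LGR6 and TCF7) in PEO1 with prexasertib, against 14.7% of all tested genes called higher and 14.6% called lower. The median log2 change was -0.14 over the 10 genes and 0.0089 over all tested genes. In COV362 edgeR's test called 0 higher and 0 lower, where 0.607% and 0.221% of all tested genes were called. At an unadjusted p under 0.05, 2 were higher there (LEF1 and DKK1) and 2 lower (LGR5 and LGR6), against 6.33% and 6.29% of all tested genes. The median was -0.055 over the 10 genes and -0.011 over all. DESeq2 likewise called 0 higher and 0 lower in COV362, against 2.07% and 1.61% of all tested genes. With the letters as a block, edgeR called 1 member higher (DKK1) and 2 lower (LGR4 and LGR6) in COV362, against 4.2% and 5.45% of all tested genes. For the difference between the lines' changes 1 was higher (LGR5) and 1 lower (LGR6), against 3.14% and 2.97% of all tested genes, and with the block 2 were higher (LGR4 and LGR5) and 2 lower (LGR6 and TCF7), against 15.1% and 14% of all tested genes. All 4 comparisons share libraries, so their values are given side by side only. A share of the 10 genes near that of all genes is no result about them. LGR5, counted in PEO1 and in the difference, passed the filter only through COV362.

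**Figure D3:**
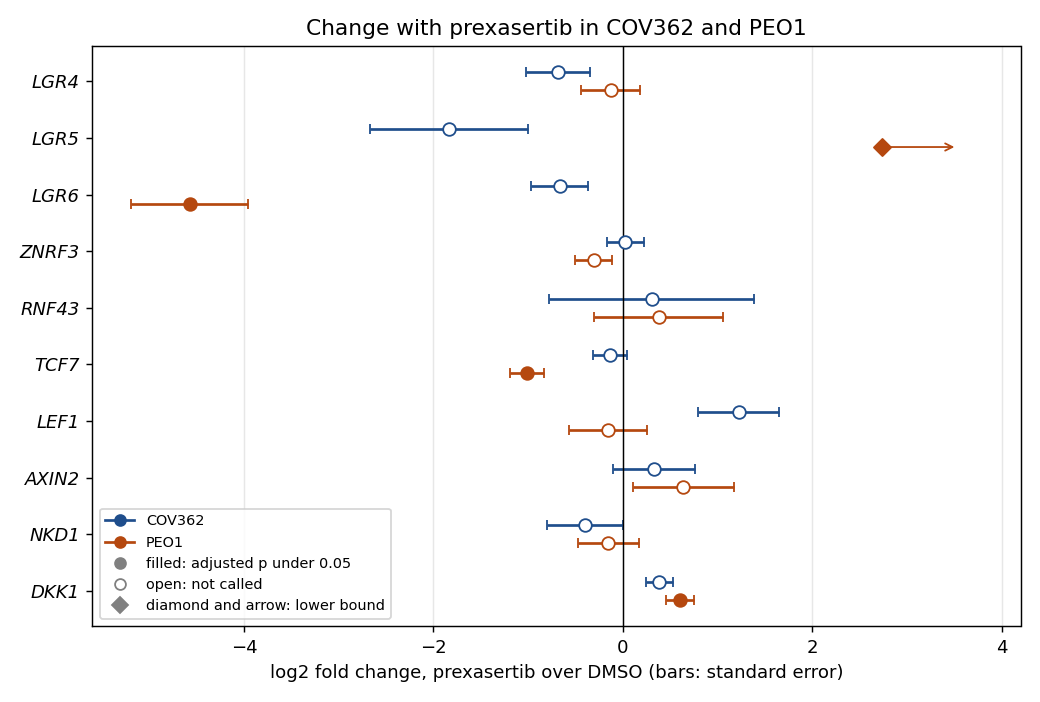
Log2 fold change of each gene with prexasertib in COV362 (blue) and PEO1 (orange), with standard errors. Filled symbols had an adjusted p under 0.05. The diamond with an arrow, labelled as a lower bound, sets the vehicle group at 3 counts and leaves out the counting error of the treated group. LGR6 lies at -4.57 in PEO1 and -0.67 in COV362, TCF7 at -1.01 and -0.14, where only the LGR6 difference between the lines was called of these, and DKK1 lies above 0 in both lines.

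Genes whose log2 CPM followed a called member most closely over the 12 libraries, after centring each line, were found by Pearson's r. For LGR6 these were CD99L2 (0.982), TSPAN15 (0.981) and NIPSNAP1 (0.98), and all 3 were lower in PEO1 prexasertib, TSPAN15 by 1.56 on the log2 scale. For TCF7 they were CBLC (0.969), ALDH3B2 (0.967) and VWA1 (0.961), also lower in PEO1. CBLC and ALDH3B2 had a fitted log2 change of exactly 0 in COV362, so their r may rest on the PEO1 libraries. For DKK1 they were HIST1H4E (0.959, a histone gene with near-identical copies), CCDC101 (0.953) and GUSBP1 (0.939), all higher in PEO1, and for LGR5 they were PCDHGA11 (0.943), C2orf69 (0.939) and C1orf106 (0.924), none called in either line. These values describe 12 libraries that share their treatment groups, and are the highest of 13116 or 13117 candidates.

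The rest of the pathway was read from 99 other genes in 8 lists, of which 75 passed the filter. In PEO1 with prexasertib 10 of the 75 rose and 21 fell, where 14.7% of all tested genes rose and 14.6% fell, and the median log2 change was -0.28 against 0.0089 over all tested genes. In COV362, 0 rose and 1 fell (0.607% and 0.221% of all tested genes), with a median of -0.13, and with the replicate block 1 rose and 10 fell (4.2% and 5.45%). For the difference between the lines the counts were 5 higher and 5 lower (3.14% and 2.97% of all tested genes), or 13 and 16 with the block (15.1% and 14%). In DMSO 31 were higher in PEO1 and 19 lower (29.1% and 28.6% of all tested genes). RSPO4, counted as higher, passed the filter only through PEO1. FZD10, NKD2, NOTUM and FZD9, counted as lower, had 0, 3, 4 and 7 counts in PEO1 DMSO. No PEO1 library held more than 0.196 CPM of any of them, below the filter's cutoff of 0.610 CPM, so COV362 carried them past it. The DMSO calls of all these genes were favoured in advance. Whether this holds for further pathway genes was not tested.

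The ligands of the LGR receptors moved in opposite directions in PEO1. RSPO3 had 0, 3 and 0 counts in PEO1 DMSO and 54, 34 and 34 in prexasertib, or 3.17, 1.87 and 2.05 CPM. All treated libraries lay above all vehicle libraries, and all 3 vehicle counts were in library B. The pooled counts were 40.8-fold higher after the drug (counting interval 13.6 to 200.0, edgeR adjusted p = 0.000319). The fitted log2 change was 5.18, and 8.18 without that library B. RSPO4 fell from 29.0, 22.3 and 23.0 CPM to 13.4, 13.6 and 15.6 CPM (log2 -0.80, edgeR adjusted p = 0.014). In COV362, RSPO3 was 3.15, 2.96 and 1.04 CPM in DMSO and 1.72, 1.91 and 1.47 CPM after the drug, which overlapped and was not called (edgeR adjusted p = 0.795), and RSPO4 had 0 counts in vehicle and 1 in treated cells. The RSPO3 changes of the 2 lines differed (edgeR adjusted p = 0.00601). In DMSO, RSPO3 was 39.7-fold lower in PEO1 than in COV362 (counting interval 13.2 to 196, edgeR adjusted p = 6.33e-05). RSPO4, which passed the filter through PEO1 alone, was 342-fold higher in PEO1 against the limit of 3 counts (edgeR adjusted p = 4.04e-09). That fold leaves out the counting error of PEO1 DMSO. RSPO1 and RSPO2 did not pass the filter.

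Of 10 tested WNT ligands, 4 fell in PEO1 and 0 rose, against 14.6% and 14.7% of all tested genes. WNT5B, a ligand mostly linked to β-catenin-independent signalling, went from 203, 156 and 153 CPM to 57.0, 38.3 and 42.5 CPM (log2 -1.89 ± 0.21 SE, edgeR adjusted p = 4.07e-05). WNT7A, expressed in Müllerian duct epithelium, went from 30.2, 20.5 and 22.2 CPM to 7.40, 8.68 and 8.75 CPM (log2 -1.55 ± 0.22 SE, edgeR adjusted p = 0.000221). WNT7B (-1.29) and WNT3 (-0.59) were the other two. For both of the first pair no treated library reached the vehicle range. The WNT5B change differed between the lines (-1.56, edgeR adjusted p = 0.0132), as did that of WNT7B (-1.02, edgeR adjusted p = 0.0146). The differences of WNT7A (-0.89, edgeR adjusted p = 0.0925) and WNT3 (-0.31, edgeR adjusted p = 0.522) were not called. In COV362, WNT7A was also lower in every treated library than in every vehicle library, though not called (log2 -0.66, edgeR adjusted p = 0.192).

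Among 7 tested extracellular antagonists 3 fell in PEO1 and 0 rose (14.6% and 14.7% of all tested genes), so DKK1 moved against DKK3, which fell by 1.38 on the log2 scale. Among 12 nuclear factors 5 fell and 1 rose. TCF7L1, the family member known mainly as a repressor, went from 15.2, 11.7 and 9.73 CPM to 4.23, 4.45 and 4.53 CPM (log2 -1.47 ± 0.24 SE, edgeR adjusted p = 0.000677). Among 14 cytoplasmic genes 4 rose and 1 fell, with TNKS, a tankyrase that marks AXIN for degradation, up from 39.0, 44.4 and 49.4 CPM to 74.8, 93.1 and 77.3 CPM (log2 0.88 ± 0.21 SE, edgeR adjusted p = 0.00686). Among 15 receptors and co-receptors 1 rose and 3 fell. The shares of all tested genes to set beside each of these lists are the same, 14.7% higher and 14.6% lower.

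Of 13 other target genes tested, 3 rose and 4 fell in PEO1, against 14.7% and 14.6% of all tested genes. BAMBI rose from 67.9, 54.6 and 49.4 CPM to 129, 95.2 and 105 CPM (log2 0.94 ± 0.17 SE, edgeR adjusted p = 0.00136). SP5 fell from 2.48, 1.85 and 1.87 CPM to 0.646, 0.769 and 0.724 CPM (log2 -1.52 ± 0.48 SE, edgeR adjusted p = 0.0297), a call lost without PEO1 DMSO A, any 1 of the 3 treated libraries or all A libraries (adjusted p up to 0.0932). SOX4 was the gene called in COV362, where it fell from 108, 143 and 107 CPM to 68.3, 78.7 and 69.0 CPM (log2 -0.73 ± 0.15 SE, edgeR adjusted p = 0.0329). That call was lost in 9 of 12 analyses leaving out 1 library, all but those without COV362 DMSO A, COV362 prexasertib B or PEO1 prexasertib A (adjusted p up to 0.166), and with only the 6 COV362 libraries (0.279). In PEO1 SOX4 rose from 22.0, 21.0 and 24.0 CPM to 36.3, 29.3 and 30.5 CPM, and the changes of the lines differed (1.25, edgeR adjusted p = 0.00555, called in all 22 alternatives).

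BMP4, a secreted growth factor of the BMP pathway, rose in PEO1 by 1.02 on the log2 scale (edgeR adjusted p = 0.0172), a call lost without PEO1 DMSO library A or B, without prexasertib library A, and with limma's voom (adjusted p 0.0553 to 0.0987). Its difference between the lines was 1.63 (edgeR adjusted p = 0.0203), and it was lost in the same 4 analyses (adjusted p 0.0568 to 0.0678). PTK7, a WNT co-receptor of the polarity branch, had a difference of -1.05 (edgeR adjusted p = 0.00796, called in all 22 alternatives). WNT11 was called in neither line (log2 -1.12, edgeR adjusted p = 0.0682 in COV362, and 0.81, 0.114 in PEO1). In PEO1 it had only 25 counts in DMSO and 44 in prexasertib. Its difference between the lines was 1.93 (edgeR adjusted p = 0.027). Among the 12 analyses leaving out 1 library this call held only without COV362 DMSO A, COV362 prexasertib A or B, or PEO1 DMSO C (adjusted p up to 0.0718). TCF7L1 had a difference of -1.27 (edgeR adjusted p = 0.0437), which among the same 12 held only without COV362 DMSO A, COV362 prexasertib B or PEO1 DMSO C (adjusted p up to 0.106) and was lost without all A libraries (0.0664). Over all 22 alternatives it was called in 12. In DMSO, TPBG was 24.9-fold, FZD8 11.9-fold and WNT5B 11.0-fold higher in PEO1 than in COV362, and BMP4 was 40.3-fold, WNT11 22.0-fold and PORCN, the enzyme that attaches a lipid to WNT ligands, 7.53-fold lower. Each had an edgeR adjusted p of at most 4.18e-06.

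**Figure D4:**
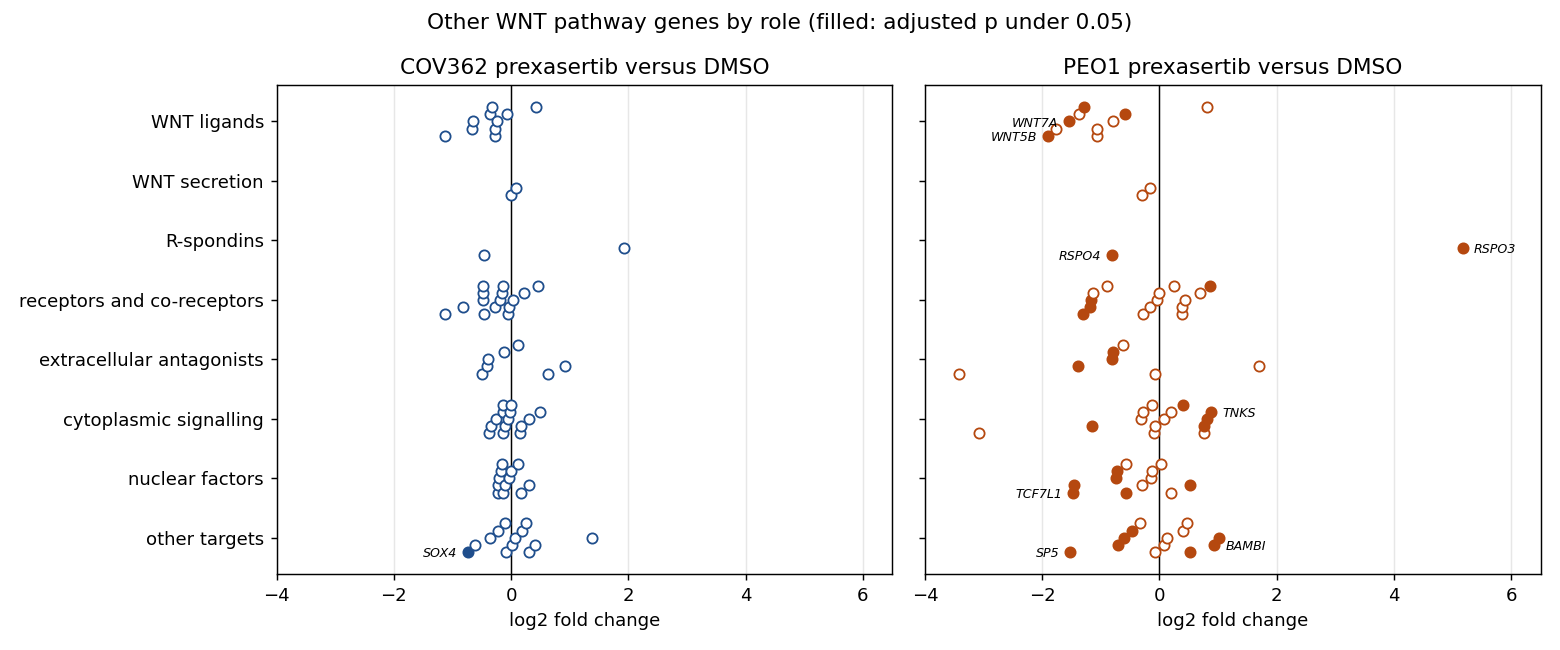
Log2 fold change with prexasertib of 75 other WNT pathway genes in COV362 (left) and PEO1 (right), 1 point per gene by role, filled where the adjusted p was under 0.05; the vertical scatter within a row only separates points. In PEO1 10 filled points lie above 0 and 21 below, with RSPO3 at 5.18, and in COV362 SOX4 at -0.73 is the 1 filled point.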

How the data were processed

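Counts per gene and library, not normalized, were deposited by the authors. The submitters' processing notes name STAR, Subread, featureCounts 1.4.6 and hg38, without saying which step each served. Per the labels' protocols the kit was TruSeq RNA v2, which does not keep strand, so reads shared by genes that overlap on opposite strands could come from either. Exon lengths and positions (1-based, outermost exons) come from the same table, per the file headers.

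Genes were kept with filterByExpr (minimum count 10, minimum total 15). Scaling (TMM) and tests were done in edgeR 4.0.16 under R 4.3.3, with quasi-likelihood F-tests on 1 fit of 4 group means to 12 libraries (8 residual degrees of freedom) and Benjamini-Hochberg adjustment over 14498 genes. The fit was checked on counts simulated independently for each library, with the spread of the same fit and no letter effect. That check does not cover libraries that deviate together. Ratios of low counts carry exact 95% intervals, and a group without counts was set to a floor of 3. Alternatives were other scaling, no filter, DESeq2 1.42.0, limma 3.58.1 (voom), a replicate block, a length correction and leaving libraries out. Libraries of the same letter deviated together within each line and across them, with all correlations from 0.115 to 0.547. For different letters they ran from -0.557 to 0.334, so that some of these exceeded same-letter values. The letters may therefore pair the libraries, but the labels do not say what a letter marks. The main fit left the letters out, and results with them as a block are given as alternatives. All 10 members are named. Other pathway genes are named as the 4 highest and 4 lowest called changes of each comparison with a mean of at least 1 CPM. Further ones are examples chosen after their values were seen. The members and lists were chosen with earlier results of these data known. Like genes were ranked on log2 CPM with 0.5 added. Promoter windows are RefSeq's.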

Additional observations from a re-analysis of the deposited data

Results flagged for a closer look

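The change of LGR6 with prexasertib differed between the lines: the log2 change in PEO1 minus that in COV362 was -3.91 (SE 0.73, edgeR adjusted p = 0.00997), with 3 of 3 treated libraries below all vehicle libraries in PEO1. The change of LGR5 also differed, by 7.49 (SE 2.00, edgeR adjusted p = 0.049), where the size depends on how 0 counts in PEO1 DMSO are treated and is no bound. That call was lost in 9 of the 12 analyses leaving out 1 library (edgeR adjusted p up to 0.109). LGR5 passed the filter only through COV362, whose vehicle group enters this difference. The direction was higher in 3 of 3 treated PEO1 libraries and lower in 3 of 3 treated COV362 libraries, of which library C stood at 0.951 of vehicle library C. With 3 libraries per group, single libraries were not tested for standing apart.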

How the results depend on the processing

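With the replicate letter as a block, COV362 had 609 genes higher and 790 lower among all tested genes (88 and 32 without it), 1 and 2 among the 10 members, and 1 and 10 among the other pathway genes. PEO1 had 3476 and 3450 among all genes (2136 and 2113 without it). The difference between the lines had 2192 and 2027 (455 and 430 without it), 2 and 2 among the members, and 13 and 16 among the pathway genes. A block within each line gave 832 and 1145, 2 and 2, and 3 and 13 in COV362, 3746 and 3700 for all genes in PEO1, and 2586 and 2320, 2 and 3, and 13 and 17 for the difference. A block with length correction gave 668 and 810, 1 and 2, and 3 and 9 in COV362, 3251 and 3982 for all genes in PEO1, and 1986 and 2391, 1 and 2, and 12 and 20 for the difference. Beside those named in the text, the block changed no other call among the members.

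DESeq2 called 300 and 233 genes in COV362, with 1 and 3 pathway genes, and for the difference 847 and 1119, with 0 and 2 members and 8 and 10 pathway genes. It gave LGR5 no adjusted p for that difference (unadjusted p = 9.39e-05). Voom called 51 genes lower in COV362, with 2 pathway genes, and 2 members lower for the difference, as did DESeq2's size factors and upper quartile factors. Length correction alone gave 144 and 81 genes and 2 pathway genes lower in COV362, and for the difference 867 genes lower, 2 members lower, and 8 and 10 pathway genes. Without the A libraries COV362 had 184 and 146 genes, with 1 member and 3 pathway genes lower, and the difference had 9 pathway genes higher. With only the 6 libraries compared, COV362 had 8 and 2 genes and 0 pathway genes lower, and PEO1 had 1 member higher. In the DMSO comparison no count moved by more than 1.5 times. In the main fit 14.7% of all tested genes were higher in PEO1, and 3.14% were higher and 2.97% lower for the difference. Where a member or pathway count stands in this section without the all-gene count of its setting, it is no result about those genes.

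Leaving out 1 library at a time, all genes in COV362 ranged from 24 to 95 higher and 3 to 41 lower, and pathway genes lower from 0 to 1. In PEO1 all genes higher ranged from 1358 to 2531, members higher from 0 to 2 and pathway genes higher from 3 to 11. For the difference the ranges were 144 to 786 and 169 to 970 for all genes, 0 to 1 and 1 to 2 for the members, and 2 to 8 and 3 to 9 for the pathway genes.

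Values that were not called changed sign in places. RNF43 in COV362 was -0.039 with voom and -1.76 to 1.85 leaving out 1 library, in PEO1 -0.032 without the A libraries and -0.20 to 0.56, and its difference was -0.010 without the filter, -0.037 with the block within lines, -0.12 with length correction, -0.13 with both block and length, -0.47 without the A libraries and -1.48 to 2.13 leaving out 1 library. AXIN2 was -0.068 in COV362 without the A libraries, and leaving out 1 library it was -0.23 to 0.90 in PEO1 and -0.57 to 0.56 for the difference. ZNRF3 in COV362 was -0.12 to 0.16, LEF1 in PEO1 was -0.47 to 0.071, and the NKD1 difference was -0.071 with length correction and -0.070 with block and length. The cause was not tested. Among the members the fewest counts lay behind RNF43 in COV362 (6 in vehicle and 8 in treated libraries) and LGR5 in PEO1 (0 and 20).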
